A study of Mus musculus with 12 samples.

Results

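Matricellular and fibril matrix glycoproteins were studied as 10 genes: Postn, Tnc, Tnn, Thbs1, Thbs2, Thbs4, Fn1, Fbn1, Fbn2 and Sparc. They were compared across mouse fibroblasts, day 4 reprogramming cultures and induced pluripotent stem cells. The genes were taken by name, and each matched 1 of the 40384 Ensembl gene identifiers of the deposited table through GENCODE M21, the mouse annotation on GRCm38. Polyadenylated RNA was sequenced from 4 groups of 3 libraries. The group labelled D4_DUX is day 4 of reprogramming with the treatment OE-DUX, labelled as overexpression for 48 h, and D4 is day 4 with the treatment OE-NC, its overexpression control. The group iPSC holds induced pluripotent stem cells, and MEF holds embryonic fibroblasts. Per the labels' protocols the MEF came from male midgestation embryos, homozygous for 4F2A. The same embryo age is given for D4 and D4_DUX, and none for iPSC. Medium with 1000 U/mL LIF and 2 μg/mL doxycycline is described in a text that all groups share. The 4F2A cells carry transgenes for Oct4, Sox2, Klf4 and Myc that doxycycline switches on. The labels do not give the strain, the origin of the iPSC or any feeder cells, nor whether the libraries of a group were separate cultures, so p-values measure the spread between these libraries only.

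Matricellular proteins are secreted into the matrix but act mainly on how cells attach and signal, and they are typically abundant in embryos, wounds and cultured fibroblasts. Periostin (Postn), the tenascins (Tnc, Tnn), the thrombospondins (Thbs1, Thbs2, Thbs4) and Sparc belong to this class. Fibronectin (Fn1) is assembled by integrins into the first fibrils of a new matrix, and the fibrillins (Fbn1, Fbn2) form the microfibrils on which elastic fibres are laid and which bind latent TGF-beta complexes. Fibroblasts lose much of this matrix programme when they become pluripotent cells, which grow as compact epithelial colonies.

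Promoters are shown for Postn, Tnn, Thbs2 and Tnc, which had the largest falls in D4_DUX on the log2(FPKM + 1) scale among the members with a window. RefSeq windows (build GRCm38.p6, 300 bases around the start) were given for 7 of the 10 members. The 150 bases before the start are printed 5′ to 3′, with each motif match inside them in capitals.
Postn, chr3:54360957-54361106, plus strand: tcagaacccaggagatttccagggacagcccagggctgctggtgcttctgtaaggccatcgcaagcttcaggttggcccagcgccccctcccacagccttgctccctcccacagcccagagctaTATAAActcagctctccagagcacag
Tnc, chr4:64047016-64047165, minus strand: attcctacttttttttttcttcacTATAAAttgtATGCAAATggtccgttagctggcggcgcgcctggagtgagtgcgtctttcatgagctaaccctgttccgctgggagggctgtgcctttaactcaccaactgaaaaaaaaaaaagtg
Tnn, chr1:160153576-160153725, minus strand: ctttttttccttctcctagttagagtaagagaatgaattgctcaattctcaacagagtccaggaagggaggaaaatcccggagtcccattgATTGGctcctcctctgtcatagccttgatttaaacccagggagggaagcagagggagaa
Thbs2, chr17:14694263-14694412, minus strand: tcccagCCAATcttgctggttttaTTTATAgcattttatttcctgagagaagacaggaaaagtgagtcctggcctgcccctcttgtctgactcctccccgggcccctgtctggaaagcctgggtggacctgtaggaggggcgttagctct
Each motif was searched on both strands of the 300 bases, and its share among all 32851 RefSeq windows of that length is given beside the members' count. The TATA box letters, TATAAA, lay 26 bases before the start of Postn, at position -126 of Tnc and, on the reverse strand, at -126 of Thbs2. They were in 3 of 7 member windows and in 13.6% of all windows. The octamer, ATGCAAAT, was at -116 of Tnc, in 1 of 7 member windows and in 1.74% of all windows. The CCAAT box, searched as CCAAT, was in 2 of 7 windows (Thbs2, Tnn) and in 37.4% of all windows. For the GC box, GGGCGG, the numbers were 3 of 7 (Fbn1, Thbs4, Tnc) and 35.7%. TEAD site letters, GGAATG, were in 2 of 7 (Thbs4, Tnn) and in 14.7% of all windows. The GC box of Tnc (-167), the TEAD site of Tnn (-160) and a CCAAT box of Thbs2 (-186) lie before the printed bases. The Snail-type E-box, CACCTG, was in 2 of 7 (Sparc, Thbs4) and in 20.2% of all windows. The AP-1 site, TGACTCA, was in 0 of 7 and in 5.2% of all windows. The palindromic SMAD site, GTCTAGAC, was in 0 of 7 and in 0.213% of all windows. Thbs4, whose fall was smaller on that scale and rested on few fragments, is not printed; its window was 72% G or C, against a median of 52.7% over all windows, and held the GC box 3 times, at -89, -51 and -42. The RefSeq start lay 1555 bases from the GENCODE M21 start for Fbn1 and 3103 bases for Sparc, so their matches concern another start than the gene positions given here, and at most 27 bases from it for the other 5. These matches are letters in a window and say nothing of binding.

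The values are FPKM, fragments scaled to gene length and library depth, so levels of different genes can be set side by side. Steps in the low values gave a depth of 22520000 to 28120000 counted fragments per library. The labels were checked on markers: 14 pluripotent cell markers such as Dppa5a, Tdgf1 and Utf1 summed to 1472 to 1643 FPKM in iPSC, against at most 1.78 FPKM in any library of the other groups. Of 15 fibroblast markers, 15 reached 1 FPKM in every MEF library and 14 did so in every iPSC library. Duxf3, the annotated Dux gene, had 0 FPKM in each of the 3 D4_DUX libraries and stayed below a floor of 3 fragments in all 12 libraries, so the label of overexpression could not be checked on it. Replicate libraries correlated at Pearson r 0.9936 to 0.9966 across genes, and 0 of 66 column pairs were identical. Genes with at least 1 FPKM in at least 3 libraries, 17114 in number, were tested with limma on log2(FPKM + 1). Calls needed a p under 0.05 after Benjamini-Hochberg adjustment across these genes, and log2 fold changes of low genes are understated on this scale. All 10 members entered the test, Thbs4 through its level in MEF alone.

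**Figure D1:**
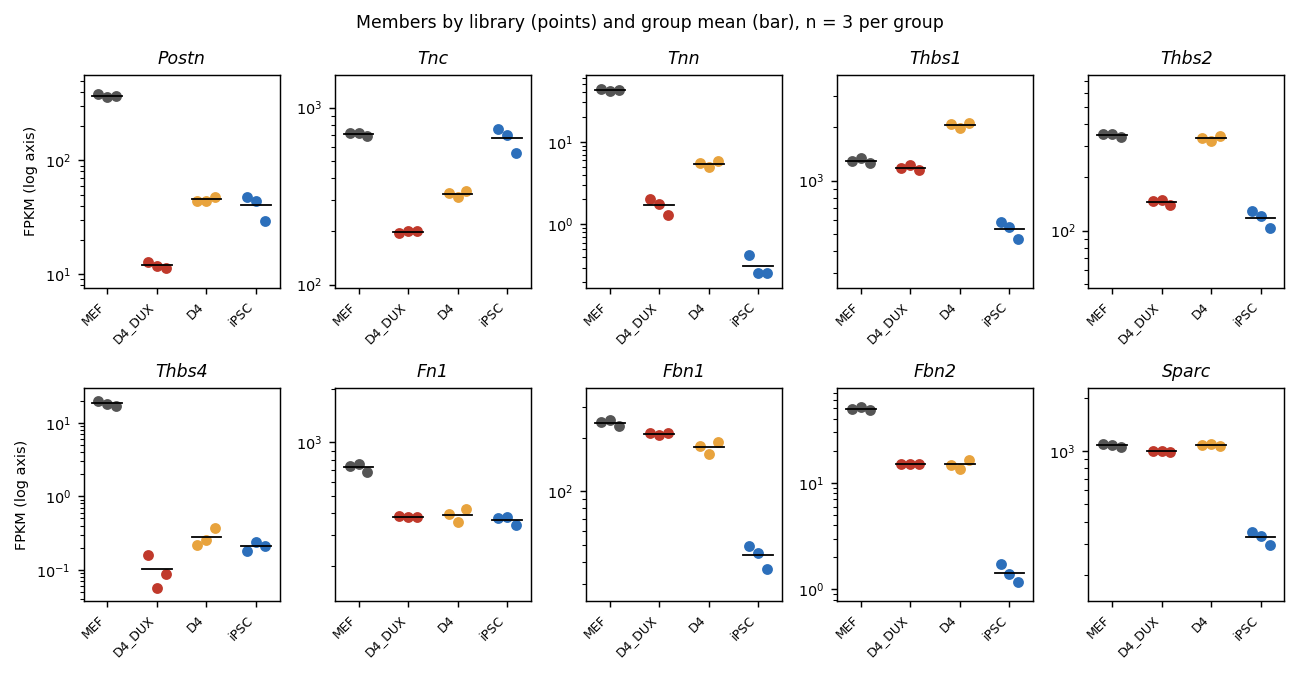
FPKM of each member in each library (points, log axis) with the group mean (bar), for MEF, D4_DUX, D4 and iPSC, n = 3 each. Postn, Tnn and Thbs2 are lower in every D4_DUX library than in every D4 library, Thbs1 is highest in D4, and Tnc is at a similar level in iPSC and MEF.

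In the libraries labelled D4_DUX the members Postn, Tnn, Tnc, Thbs1 and Thbs2 were lower than in D4, Thbs4 was lower with a call that 4 of 23 alternatives ended, and Fn1, Fbn2 and Sparc were not called. Of their relatives tested, the tenascin Tnxb was higher and the thrombospondin Thbs3 was not called. The comparison sets the treatment labelled OE-DUX against OE-NC at day 4; Duxf3 was not detected in the D4_DUX libraries, so a difference is one between the labels. Of the 10 members 6 fell and 1 rose, against 15.4% of all genes tested lower and 20.1% higher (35.4% in either direction). Members and gene lists were chosen with earlier results of these data known. Here and below, shares of all genes give a scale and no test of enrichment. The groups did not overlap for 7 members that were lower and 1 that was higher, against 21.9% and 28.5% of all genes (50.5% in either direction). By at least 2-fold, 3 members fell (0.666% of all genes) and 0 rose (0.421%). The median log2 fold change of the 10 was -0.47, and that of all genes 0.02. In RNA from whole cultures, fewer cells of a type and less RNA per cell cannot be told apart.

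Postn (ENSMUSG00000027750, chr3:54361109-54391037), which binds collagen and integrins, was at 12.6, 11.8 and 11.3 FPKM in D4_DUX, against 44.1, 44.2 and 47.3 FPKM in D4. All 3 D4_DUX libraries lay far below the D4 libraries, and the log2 difference was -1.84 (SE 0.13, adjusted p = 3.24e-06, limma). On this scale it was the largest change among the 10 members, and only 0.0351% of the genes tested had a lower value. Tnn (tenascin N or W, ENSMUSG00000026725, chr1:160085029-160153580), found in developing bone and tumour stroma, was at 2.03, 1.75 and 1.31 FPKM in D4_DUX, against 5.48, 4.91 and 5.88 FPKM in D4. Its D4_DUX mean was 31.3% of that in D4, without overlap (log2 fold change -1.26, SE 0.09, adjusted p = 3.71e-06). Tnc (tenascin C, ENSMUSG00000028364, chr4:63959785-64047015), which loosens the hold of cells on fibronectin, was at 196, 199 and 200.2 FPKM in D4_DUX, against 327, 314 and 339 FPKM in D4. Tnc fell less than Tnn, to 60.8% of D4, with a log2 fold change of -0.71 (adjusted p = 0.00012).

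Thbs2 (ENSMUSG00000023885, chr17:14665500-14694235), an inhibitor of vessel growth that clears matrix proteases, was at 147, 149 and 139.7 FPKM in D4_DUX, against 334, 321 and 344 FPKM in D4. Its D4_DUX mean was 43.6% of that in D4 (log2 fold change -1.19, SE 0.07, adjusted p = 6.26e-07). Thbs1 (ENSMUSG00000040152, chr2:118111876-118127133), which can release active TGF-beta from its latent form, was at 1178, 1216 and 1142 FPKM in D4_DUX, against 2078, 1972 and 2103 FPKM in D4. Here too the groups stood apart, with a log2 fold change of -0.80 (adjusted p = 1.57e-05). Thbs4 (ENSMUSG00000021702, chr13:92751590-92794818), a thrombospondin of tendon and muscle, was near the lower end of the measurable range, with 14, 5 and 7 fragments in D4_DUX, against 16, 20.5 and 30.5 fragments in D4. In FPKM it was at 0.16, 0.0566 and 0.0889 in D4_DUX and 0.216, 0.251 and 0.373 in D4 (log2 fold change -0.22, adjusted p = 0.0288). The call for Thbs4 ended under 4 of 23 alternatives (adjusted p up to 0.105), namely without a filter and without D4 replicate 3, D4_DUX replicate 2 or D4_DUX replicate 3, and with voom on recovered fragments its log2 fold change was -1.50.

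Fn1 (ENSMUSG00000026193, chr1:71585520-71653200) was at 382, 379.9 and 378 FPKM in D4_DUX, within the D4 values of 396, 356 and 419.8 FPKM (log2 fold change -0.04, SE 0.06, adjusted p = 0.714). Fbn2 (ENSMUSG00000024598, chr18:58008623-58210487), the fibrillin that prevails in embryos, was at 15.2, 15.0 and 15.2 FPKM in D4_DUX, against 14.9, 13.49 and 16.4 FPKM in D4 (0.03, SE 0.08, adjusted p = 0.857). For both genes the D4_DUX libraries lay inside the D4 range. Fbn1 (ENSMUSG00000027204, chr2:125300594-125507993), the main fibrillin of adult tissues, was the member that rose, at 214, 207 and 215 FPKM in D4_DUX, against 181, 163 and 190.3 FPKM in D4. Every D4_DUX library was higher, but the log2 difference of 0.25 (SE 0.09, adjusted p = 0.0471) was close to the threshold and did not pass under 16 of 23 alternatives, with an adjusted p of up to 0.159 without D4 replicate 2. Sparc (ENSMUSG00000018593, chr11:55394500-55423183), a collagen chaperone of the extracellular space, was at 1000.0, 1006 and 991 FPKM in D4_DUX, against 1088, 1099 and 1069 FPKM in D4. All 3 D4_DUX values were below D4, with a log2 fold change of -0.12 (adjusted p = 0.126) that passed under 2 of 23 alternatives and was 0.01 with quantile normalization.

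Markers of other cells moved in the same comparison. Of 16 macrophage markers 15 fell and 0 rose, with a summed level of 47.6 to 48.6 FPKM in D4_DUX, against 193 to 230.5 FPKM in D4, and 0 of the 16 were at 0 FPKM throughout either group. Lyz2, the macrophage lysozyme, was at 31.0 ± 1.23 FPKM in D4_DUX and 149 ± 14.5 FPKM in D4 (SD, n = 3 each). Of 15 fibroblast markers 8 fell and 0 rose, with sums of 2955 to 3039 FPKM in D4_DUX and 3822 to 3968 FPKM in D4; Col1a1, Col1a2 and Col3a1, collagen chains, averaged 866, 580.2 and 370.4 FPKM in D4_DUX and 1249.8, 821 and 451 FPKM in D4. Of 5 mesothelial markers 4 rose and 0 fell, with sums of 576 to 588 FPKM in D4_DUX and 406 to 433 FPKM in D4. The part of these cell types in the members' differences was not tested.

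**Figure D2:**
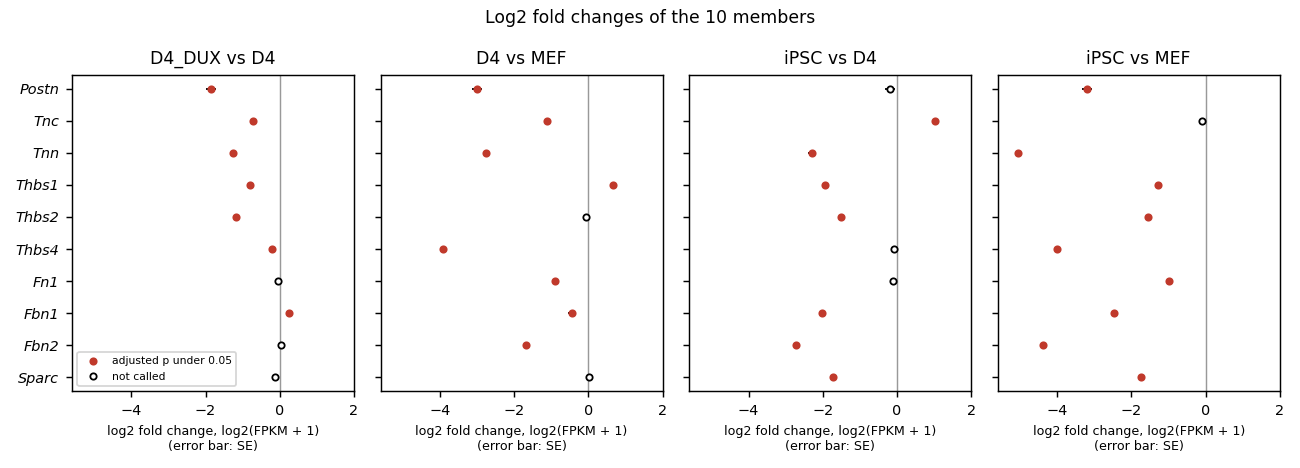
Log2 fold change of each of the 10 members on the log2(FPKM + 1) scale (bars: SE from limma), in 4 panels for D4_DUX vs D4, D4 vs MEF, iPSC vs D4 and iPSC vs MEF (filled: adjusted p under 0.05; open: not called). In D4_DUX vs D4 the first 6 genes lie below 0 and Fbn1 above it, and in D4 vs MEF Thbs1 lies above 0.

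In D4 relative to MEF the members separated: Postn, Tnn, Thbs4 and Fbn2 fell sharply, Thbs1 rose, and Thbs2 and Sparc were not called. The comparison sets reprogramming cultures, with the overexpression control, against the fibroblasts; D4 is also the control in D4_DUX vs D4, so both comparisons share its libraries. Of the 10 members 7 fell and 1 rose, against 27.6% of all genes lower and 34.2% higher (61.8% in either direction), and the groups did not overlap for these 8 (29.8% lower, 36.7% higher and 66.5% in either direction among all genes). By at least 2-fold, 5 fell and 0 rose, against 4.28% and 5.26% of all genes. The median log2 fold change was -1.01, and that of all genes 0.03.

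Thbs4 was at 0.216, 0.251 and 0.373 FPKM in D4, against 20.0, 17.9 and 17.2 FPKM in MEF. D4 held 1.53% of the MEF mean, with -3.92 on the log2 scale (SE 0.07, adjusted p = 1.84e-12), or -6.03 with voom. Thbs4 passed the filter through MEF alone, so a difference was built into its entry and into the counts of lower members. Postn was at 44.1, 44.2 and 47.3 FPKM in D4, against 381, 359 and 367 FPKM in MEF, and D4 held 12.2% of the MEF mean (-3.00, SE 0.13, adjusted p = 4.33e-09). Tnn was close to Postn in its relative loss, at 5.48, 4.91 and 5.88 FPKM in D4, against 43.5, 41.7 and 41.8 FPKM in MEF, 12.8% of the MEF mean (-2.76, adjusted p = 4.36e-10). Tnc kept more of its level, with 327, 314 and 339 FPKM in D4, against 721, 716 and 691 FPKM in MEF (-1.12, SE 0.09, adjusted p = 5.41e-07).

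Fbn2 was at 14.9, 13.49 and 16.4 FPKM in D4, against 49.2, 52.0 and 48.1 FPKM in MEF, or -1.68 on the log2 scale (SE 0.08, adjusted p = 8.14e-09). Fbn1 fell less, with 181, 163 and 190.3 FPKM in D4, against 245, 252 and 234 FPKM in MEF (-0.45, adjusted p = 0.000919). Fn1 was at 396, 356 and 419.8 FPKM in D4, against 740.1, 755 and 683 FPKM in MEF, with 53.8% of the MEF mean in D4 (-0.89, adjusted p = 2.43e-07). None of these 3 fibril genes had a D4 library that reached the MEF range.

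Thbs1 alone rose, at 2078, 1972 and 2103 FPKM in D4, against 1295, 1338 and 1258 FPKM in MEF, or 0.66 on the log2 scale (SE 0.07, adjusted p = 9.79e-06). By mean FPKM it had rank 7 of all gene identifiers in D4 and rank 18 in MEF. Thbs2 was at 334, 321 and 344 FPKM in D4, against 349, 351 and 337 FPKM in MEF, and the groups overlapped (-0.05, SE 0.07, adjusted p = 0.516). Sparc was at 1088, 1099 and 1069 FPKM in D4, against 1099.7, 1086 and 1056 FPKM in MEF, also with overlap (0.01, SE 0.06, adjusted p = 0.946). The changes of the 8 called members held under all 23 alternatives, which for Thbs4 adds little, since its difference was built into its entry.

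Beside these falls, 16 of 16 macrophage markers fell, with sums of 193 to 230.5 FPKM in D4, against 1700.0 to 1742 FPKM in MEF, and 0 of them were at 0 FPKM throughout either group. Lyz2 was at 149 ± 14.5 FPKM in D4 and 1303 ± 22.7 FPKM in MEF. Of the fibroblast markers 10 of 15 fell and 4 rose, with sums of 3822 to 3968 FPKM in D4 and 6443 to 6614 FPKM in MEF. All 5 mesothelial markers rose, with sums of 406 to 433 FPKM in D4 and 5.32 to 5.87 FPKM in MEF. The part of these cell types in the members' differences was not tested.

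**Figure D3:**
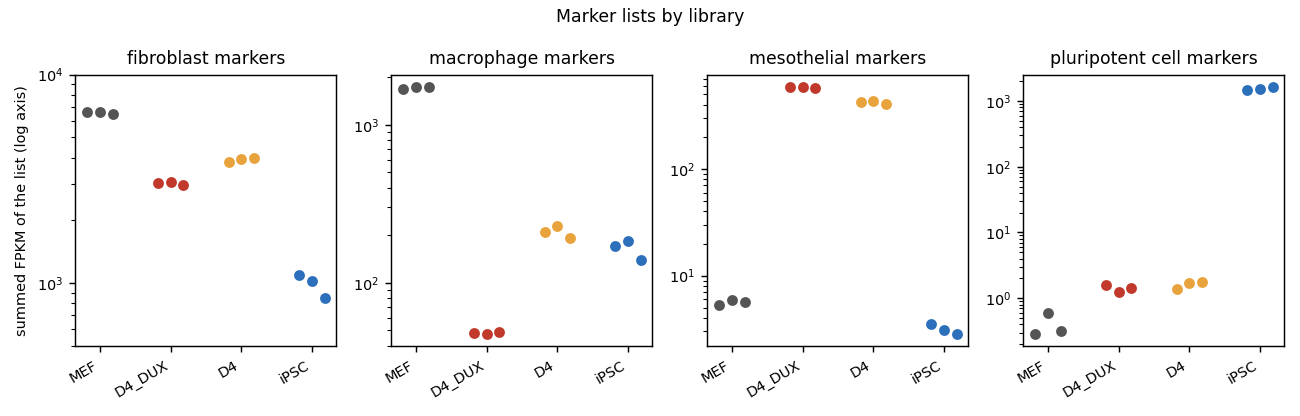
Summed FPKM of 4 marker lists in each library (points, log axes that differ between panels), for MEF, D4_DUX, D4 and iPSC. Macrophage marker sums are 1700.0 to 1742 in MEF, 47.6 to 48.6 in D4_DUX, 193 to 230.5 in D4 and 138 to 183 in iPSC, and fibroblast marker sums in iPSC are 847 to 1100.1.

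In iPSC 9 of 10 members were lower than in MEF, but they differed widely in how much was left: Tnn, Thbs4 and Fbn2 were nearly lost, and Tnc stood at 94.4% of its MEF mean. The comparison sets iPSC, whose origin the labels do not give, against the fibroblasts. Against 31.2% of all genes lower and 51% higher (82.2% in either direction), 9 members fell and 0 rose, and the same 9 did not overlap (31.3% lower, 51.1% higher and 82.4% in either direction among all genes). By at least 2-fold, 8 fell and 0 rose, against 8.57% and 20.1% of all genes. The median log2 fold change of the 10 was -2.10, and that of all genes 0.21. That shift of all genes depends on scaling: median-ratio scaling lowered it by 0.18 and quantile normalization by 0.25.

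Tnn was at 0.422, 0.256 and 0.259 FPKM in iPSC, against 43.5, 41.7 and 41.8 FPKM in MEF, so that 0.738% of the MEF mean was left (log2 fold change -5.05, SE 0.09, adjusted p = 8.03e-13). Thbs4 was at 0.183, 0.239 and 0.208 FPKM in iPSC, against 20.0, 17.9 and 17.2 FPKM in MEF, 1.15% of the MEF mean (-4.00, adjusted p = 3.97e-13, and -6.41 with voom). It passed the filter through MEF alone, so here too a difference was built into its entry and into the counts of lower members. Fbn2 was at 1.73, 1.402 and 1.17 FPKM in iPSC, against 49.2, 52.0 and 48.1 FPKM in MEF, 2.88% of the MEF mean (-4.39, SE 0.08, adjusted p = 7.65e-13). These 3 genes thus had the lowest shares among the members, all under the lowest share of a fibroblast marker, 6.04% for Col1a1. Postn was at 47.8, 43.4 and 29.3 FPKM in iPSC, against 381, 359 and 367 FPKM in MEF (-3.20, SE 0.13, adjusted p = 6.38e-10).

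Fbn1 was at 49.0, 44.8 and 36.6 FPKM in iPSC, against 245, 252 and 234 FPKM in MEF (-2.47, adjusted p = 1.73e-10). Sparc was at 351, 332 and 296 FPKM in iPSC, against 1099.7, 1086 and 1056 FPKM in MEF (-1.73, adjusted p = 7.43e-11). Thbs2 was at 129, 122 and 103 FPKM in iPSC, against 349, 351 and 337 FPKM in MEF (-1.55, adjusted p = 8.83e-10). These 3 kept 17.8%, 30.2% and 34.1% of their MEF means. Thbs1 kept 41%, at 584, 546 and 469 FPKM in iPSC, against 1295, 1338 and 1258 FPKM in MEF (-1.29, adjusted p = 9.13e-09). Fn1 kept 50.3%, at 374, 378 and 343 FPKM in iPSC, against 740.1, 755 and 683 FPKM in MEF (-0.99, adjusted p = 3.13e-08).

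Tnc was at 752, 700.1 and 556 FPKM in iPSC, against 721, 716 and 691 FPKM in MEF, and the groups overlapped (-0.10, SE 0.09, adjusted p = 0.331). Its direction turned with scaling: it was lower with median-ratio scaling (-0.34, adjusted p = 0.00273) and higher with quantile normalization (0.29, adjusted p = 0.0109), and without iPSC replicate 3 it was 0.03 (adjusted p = 0.514). Among the members Tnc had the highest level in iPSC, with 31.9% of the summed FPKM of the 10, against 14.5% in MEF.

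The iPSC libraries also held fibroblast and macrophage transcripts. Their 15 fibroblast markers summed to 847 to 1100.1 FPKM, 15.1% of the MEF mean, and 13 were lower and 2 higher than in MEF. Single markers ranged from 6.04% (Col1a1) through a median of 18.3% to 113% for Dcn, a matrix proteoglycan, and 194% for Twist2, a mesenchymal transcription factor, while the members had a median of 24%. The 16 macrophage markers, all 16 lower than in MEF, summed to 138 to 183 FPKM in iPSC, against 1700.0 to 1742 FPKM in MEF. In iPSC, replicate 3 had the lowest value for 8 of 10 members and for 15 of 15 fibroblast markers, and replicate 1 had the highest for 8 of 10 and 12 of 15. Postn in replicate 3 was 64.2% of the mean of the other replicates, and Col1a1 72.8%. Which cells carried the members' transcripts in the iPSC libraries was not tested.

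**Figure D4:**
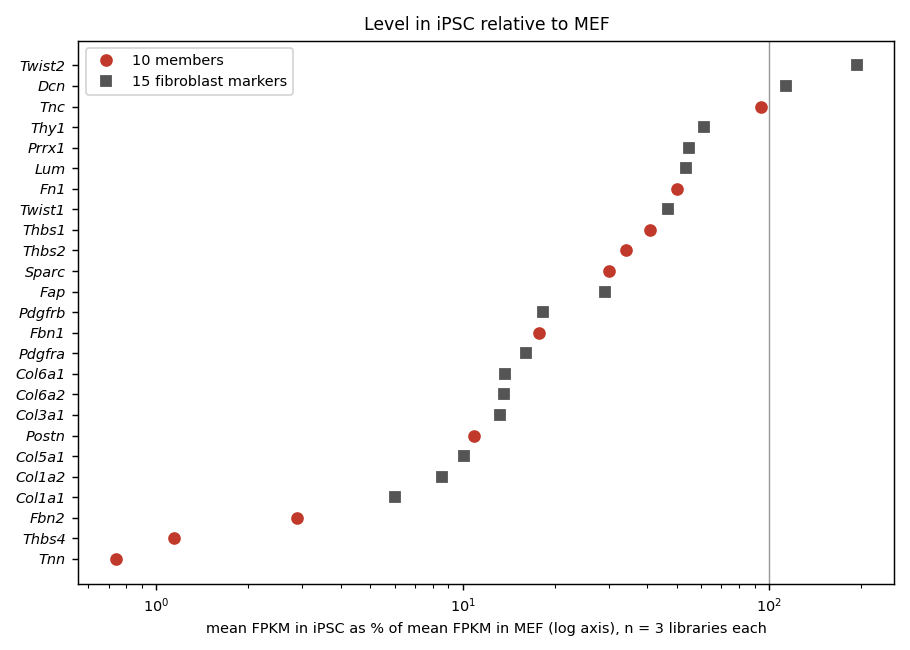
Mean FPKM in iPSC as a percentage of mean FPKM in MEF (log axis, n = 3 libraries each) for the 10 members (circles) and 15 fibroblast markers (squares), sorted by value. Tnn, Thbs4 and Fbn2 lie below every fibroblast marker, and Tnc at 94.4% is exceeded by Dcn and Twist2.

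Set against D4, whose libraries serve as control in D4_DUX vs D4 as well, the iPSC libraries had 6 members lower and 1 higher, against 33.9% and 48.5% of all genes (82.4% in either direction). The groups did not overlap for the same numbers, 6 lower and 1 higher, against 33.8% and 48.6% of all genes (82.4% in either direction). Tnc was the higher gene, at 669 ± 102 FPKM in iPSC and 327 ± 12.6 FPKM in D4 (SD, n = 3 each), or 1.02 on the log2 scale (SE 0.09, adjusted p = 4.24e-07, limma). The lower genes were Fbn2 (-2.71), Tnn (-2.29), Fbn1 (-2.02), Thbs1 (-1.95), Sparc (-1.73) and Thbs2 (-1.50), with adjusted p of at most 1.15e-09. Each of these 7 changed by at least 2-fold, against 9.72% of all genes lower and 19.8% higher. Postn (-0.20, adjusted p = 0.194), Fn1 (-0.10, 0.186) and Thbs4 (-0.08, 0.295) were not called, and their groups overlapped. With quantile normalization Fn1 was higher in iPSC (0.22, adjusted p = 0.0389), and with median-ratio scaling lower (-0.28, adjusted p = 0.00145). Postn was also lower in iPSC with median-ratio scaling (-0.38, adjusted p = 0.0172), and Thbs4 with quantile normalization (-0.27, adjusted p = 0.00391). Markers of other cells moved in the same comparison. Of 15 fibroblast markers 14 were lower and 1 higher, with sums of 847 to 1100.1 FPKM in iPSC and 3822 to 3968 FPKM in D4. All 5 mesothelial markers were lower, with sums of 2.86 to 3.52 FPKM in iPSC and 406 to 433 FPKM in D4. Of 16 macrophage markers 10 were lower and 3 higher, with sums of 138 to 183 FPKM in iPSC and 193 to 230.5 FPKM in D4, and in these 3 lists 0 markers were at 0 FPKM throughout either group. Their part in the members' differences was not tested.

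The calls placed the members in different sets across MEF, D4 and iPSC. Postn, Fn1 and Thbs4 differed between D4 and MEF and were not called between iPSC and D4. The missing calls depended on scaling: Postn and Fn1 were both called lower in iPSC with median-ratio scaling, and Thbs4 with quantile normalization, so this grouping holds for the FPKM as deposited. Thbs2 and Sparc were not called between D4 and MEF and were lower in iPSC than in D4. Tnn, Fbn1 and Fbn2 fell in both comparisons, and Tnc fell in D4 and was higher in iPSC than in D4. Thbs1 alone rose in D4 relative to MEF, and it was lower in iPSC than in D4. These groupings describe calls, and the difference between the comparisons was not tested.

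The levels of related members relative to each other differed between the groups in these libraries. The fibrillins favoured Fbn1 in every library, and the log2 ratio of Fbn2 to Fbn1, with 0.1 FPKM added to each, was -2.29 ± 0.02 in MEF, -3.57 ± 0.04 in D4 and -4.83 ± 0.08 in iPSC (SD, n = 3 each). In D4_DUX it was -3.80 ± 0.02, lower than in D4 by 0.23. Thbs1 made up 88.9, 89.1 and 89.1% of the summed FPKM of Thbs1, Thbs2 and Thbs4 in D4_DUX, against 86.1, 86.0 and 85.9% in D4. In MEF, D4 and iPSC this share averaged 78.1%, 86.0% and 81.8%. Thbs3, which is not a member, was left out of the share. Summed over the 10 members, the level was 3148, 3186 and 3094 FPKM in D4_DUX, against 4469, 4288 and 4534 FPKM in D4. The sums in MEF, D4 and iPSC averaged 4882 ± 129, 4430.5 ± 128 and 2096 ± 236 FPKM (SD, n = 3 each). Thbs1 made up 37.5% of the sum in D4_DUX, 46.3% in D4, 26.6% in MEF and 25.4% in iPSC. The sum thus weighs the most abundant members most, and Thbs1 rose in D4 vs MEF while 7 members fell. In each of the 4 comparisons, the exact two-sided permutation test of the ratio, of the share and of the sum gave p = 0.1, the smallest value that 3 against 3 libraries allow.

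**Figure D5:**
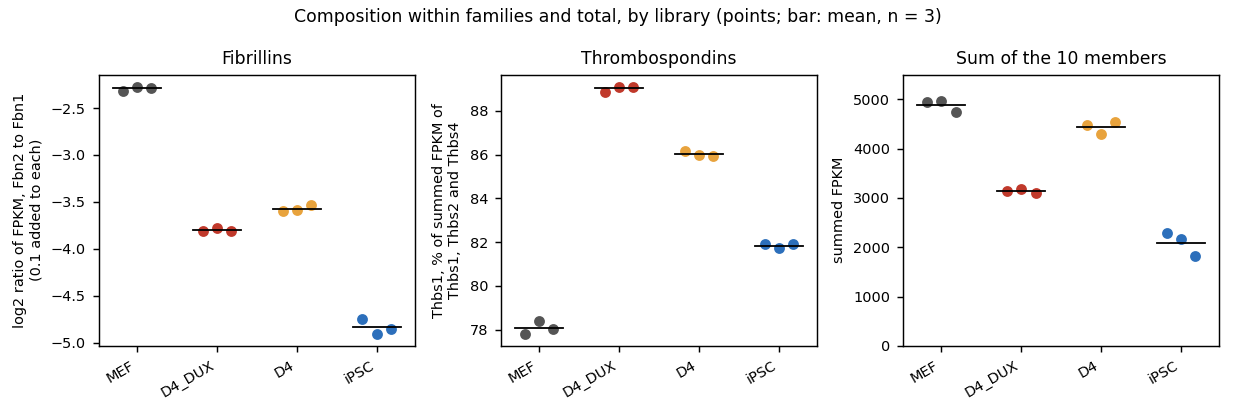
Log2 ratio of Fbn2 to Fbn1 (left), share of Thbs1 among Thbs1, Thbs2 and Thbs4 in percent (middle) and summed FPKM of the 10 members (right), by library (points; bar: mean, n = 3) for MEF, D4_DUX, D4 and iPSC. The ratio is highest in MEF and lowest in iPSC, the share is highest in D4_DUX, and the groups do not overlap in any panel.

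The members kept their rank order only in part. Thbs1 led in D4_DUX, D4 and MEF and Sparc came next in each, with 1179 ± 36.9 against 999 ± 7.21 FPKM in D4_DUX, 2051 ± 69.7 against 1085 ± 15.4 FPKM in D4 and 1297 ± 40.1 against 1081 ± 22.1 FPKM in MEF. In iPSC the order was Tnc, Thbs1, Fn1 and Sparc, of which Tnc and Thbs1 overlapped (752, 700.1 and 556 against 584, 546 and 469 FPKM), while Fn1 and Sparc did too (374, 378 and 343 against 351, 332 and 296 FPKM). In MEF, Fn1 and Tnc overlapped (740.1, 755 and 683 against 721, 716 and 691 FPKM), and Postn and Thbs2 did not. Thbs4 was lowest in all 4 groups, next to Tnn.

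For each member the 2 genes with the most similar profile were found by Pearson r of log2(FPKM + 1) over the 12 libraries, which share group means and so give no independent evidence. The nearest gene to Postn was Itgam, an integrin subunit of macrophages (r = 0.998), followed by Gm49368 (0.9973), whose gene model overlaps Itgam. Itgam averaged 0.837 FPKM in D4_DUX, 3.53 in D4, 2.86 in iPSC and 17.3 in MEF. Thbs4 was nearest to Stab1 and Dock8 (both 0.9976), and Stab1 encodes a scavenger receptor of macrophages and sinusoidal endothelium that binds Sparc. Stab1 and Dock8 averaged 10.6 and 2.57 FPKM in MEF, and at most 0.637 and 0.255 FPKM in the other groups. Like Thbs4 they passed the filter through MEF alone, so much of this likeness was built into their entry. Sparc was nearest to Fkbp10, a collagen-folding enzyme (0.9993), and Pmp22 (0.9982). Thbs2 was nearest to Ccn2, a matricellular protein (0.994), and to Gm15270 (0.9927), which overlaps Ccn2. Fbn2 was nearest to Rnf150 (0.9985) and the mesenchymal transcription factor Osr1 (0.9971), Tnn to Nacad (0.9982) and Kif26b (0.9957), Fbn1 to Atrnl1 (0.9971) and Rab28 (0.9962), and Fn1 to Arhgap31 (0.9906) and Cdk14 (0.9899). Tnc was nearest to 8030451A03Rik (0.9985) and Ptprn (0.994), and Thbs1 to Gm29233 (0.9983) and Gas6 (0.9963). Both 8030451A03Rik and Gm29233 lie on the opposite strand and share 176 and 208 exon bases with their member, 2.26% and 3.42% of its exons. The sources used here do not say whether fragments were counted by strand, so those in the shared bases cannot be assigned to either gene. The same holds for 2442 bases (20.1%) of Fbn1 shared with Gm9913, 292 bases (2.5%) of Fn1 shared with Apol7d and 129 bases (0.976%) of Fbn2 shared with Gm26507.

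Relatives, partners and receptors of these proteins, 71 genes in 6 lists, had 61 tested. In D4_DUX 30 of these fell and 8 rose relative to D4, against 15.4% and 20.1% of all genes. Among other matricellular proteins 7 of 15 fell and 2 rose (median log2 fold change -0.22). Ccn1 and Ccn2, targets of YAP and TGF-beta signalling, fell to 205 ± 8.12 and 53.9 ± 3.93 FPKM in D4_DUX, against 447 ± 23.6 and 172 ± 10.7 FPKM in D4 (adjusted p = 2.02e-07 and 1.85e-06). Ccn3 of the same family rose to 23.6 ± 1.76 FPKM in D4_DUX, against 12.7 ± 0.664 FPKM in D4 (adjusted p = 5.44e-06). Of 16 receptors 10 fell and 0 rose (median -0.24), among them the integrin subunit Itga8 (-0.99), the thrombospondin receptor Cd36 (-0.97), which macrophages also carry, and the syndecan Sdc4 (-0.41). Matrix crosslinking enzymes had 4 of 7 lower and 0 higher (median -0.23), with Lox at 584 ± 27.2 FPKM in D4_DUX and 1047 ± 5.76 FPKM in D4 (-0.84, adjusted p = 2.99e-05), Loxl2 at -0.45 and Tgm2 at -0.40.

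Elastic fibre and microfibril proteins, the partners of the fibrillins, split, with 9 of 21 lower and 5 higher in D4_DUX (median -0.07). Mfap2, which binds fibrillin microfibrils, and Fbln1, a fibulin, fell (-0.77 and -0.73), and Adamtsl5, which binds fibrillin 1, rose by 1.02 (adjusted p = 7.56e-06). The tenascin Tnxb rose to 8.9998 ± 0.451 FPKM in D4_DUX, against 2.71 ± 0.394 FPKM in D4 (1.43, adjusted p = 2.33e-07), the opposite direction to Tnc and Tnn, and the other tenascin relative, Tnr, did not pass the filter. Thbs3 was at -0.16 (adjusted p = 0.123), and Comp did not pass the filter.

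In D4 relative to MEF, 31 of the 61 fell and 21 rose, against 27.6% and 34.2% of all genes. Efemp1, a fibulin, was at 369 ± 32.5 FPKM in D4 and 38.3 ± 0.549 FPKM in MEF (3.23, adjusted p = 2.01e-11), and Ecm1 at 166 ± 7.52 FPKM in D4 and 34.9 ± 2.18 FPKM in MEF (2.22). The microfibril-binding Adamtsl4 (2.47), the crosslinking enzymes Tgm2 (2.70) and Loxl4 (2.37) and Tnxb (1.75) rose too. Tgfbi (-2.37), Stab1 (-2.83), Cd36 (-2.67) and Thbs3 (-1.002) fell. Stab1, at 10.6 FPKM in MEF and 0.637 FPKM in D4, passed the filter through MEF alone. Tnxb, at 0.0954 FPKM in MEF and 2.71 FPKM in D4, passed it through D4 and D4_DUX. A difference from MEF was thus built into the entry of both genes and into the counts that hold them. In iPSC relative to MEF 47 of 61 fell and 10 rose, against 31.2% and 51% of all genes, with Lox at 175 ± 25.5 FPKM in iPSC and 1200.2 ± 18.2 FPKM in MEF. Relative to D4, 46 of 61 fell in iPSC and 10 rose, against 33.9% and 48.5% of all genes.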

How the data were processed

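The authors deposited 1 table of FPKM per gene and library; per the submitters' processing notes the build was mm10, while aligner, counter, annotation and strand use were not given in the sources used here. Of 40384 identifiers 99.6% matched GENCODE M21 (GRCm38), which gave symbols, positions and exon lengths. Depth was taken from the step between low values, of which 50.8 to 52.8% were whole within a tolerance of 0.01. Fractional counts occur, so fragments are estimates. Values were tested as log2(FPKM + 1) in 1 limma model of 4 group means with a variance prior following mean expression (R 4.3.3, limma 3.58.1), with Benjamini-Hochberg adjustment over 17114 genes. The model was tried on simulated data with independent libraries and changes planted only in genes well above the floor. It therefore does not cover low genes such as Thbs4 in D4. Ratios, shares and sums were compared with exact permutation tests. All libraries were used, with no replicate block. Members and gene lists were chosen with earlier results of these data known. Named genes are all 10 members, from each pathway list up to 3 genes with the smallest adjusted p in D4_DUX vs D4 and 2 in D4 vs MEF, the 3 highest markers of macrophages, fibroblasts and pluripotent cells, and the 2 nearest profiles per member; single markers named otherwise were chosen after their values were seen. Sequences are from RefSeq (GRCm38.p6). Alternatives were 2 pseudocounts, 2 filters, 3 scalings, a prior with no trend, a fit of 6 libraries, the block, voom and leaving out each library.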

Additional observations from a re-analysis of the deposited data

How the results depend on the processing

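Postn, Tnn, Tnc, Thbs1 and Thbs2 kept their direction and call in D4_DUX vs D4 under all 23 alternatives, and so did the 8 called members in D4 vs MEF. Among the latter, Thbs4 entered the test through MEF alone, so its difference from MEF was built in. In D4_DUX vs D4 the count of members called higher was 0, against 1, with a pseudocount of 0.1, no filter, TPM, median-ratio scaling, quantile normalization, a prior with no trend and the replicate block, and 0 to 1 when a library was left out. Each time Fbn1 was the call lost (adjusted p = 0.0602 with the block); the block changed no other member's call. Same-numbered libraries did not deviate together (18 pairs, r -0.146 to 0.0699, against -0.135 to 0.221 for different numbers), so the numbers were not taken as pairs. Uncalled values that changed sign in D4_DUX vs D4 were, with quantile normalization, Fbn2 (-0.016) and Sparc (0.014), and, leaving out a library, Fbn2 (-0.04 to 0.091) and Fn1 (-0.10 to 0.017). In D4 vs MEF Sparc was -0.049 with median-ratio scaling and -0.0099 to 0.019 leaving out a library. In iPSC vs MEF Tnc was 0.29 with quantile normalization, which made 1 member higher, and -0.18 to 0.033 leaving out a library. In iPSC vs D4 Fn1 was 0.22 with quantile normalization, which made 2 members higher. Postn there was -0.33 to 0.011 leaving out a library (called without iPSC replicate 1, adjusted p = 0.03), and Fn1 was called without D4 replicate 2 (-0.16, adjusted p = 0.0246). The filter of 5 FPKM, under which fewer genes were tested, left 3087 genes lower in D4 vs MEF. It left 9188 called and 5570 higher in iPSC vs MEF, and 9183 called and 5183 higher in iPSC vs D4. With no filter 13594 were higher in iPSC vs MEF and 13205 in iPSC vs D4.

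The difference in log2 ratio of Fbn2 to Fbn1 was -0.28 in D4_DUX vs D4, -2.93 in iPSC vs MEF and -1.61 in iPSC vs D4 with quantile normalization. With 1 FPKM added it was -1.23 in D4 vs MEF, -1.92 in iPSC vs MEF and -0.69 in iPSC vs D4, and with 0.01 added -2.63 in iPSC vs MEF. The difference in Thbs1 share with quantile normalization was 3.198 percentage points in D4_DUX vs D4, 10.2 in D4 vs MEF, 7.07 in iPSC vs MEF and -3.12 in iPSC vs D4. The log2 ratio of the summed level with quantile normalization was -0.41 in D4_DUX vs D4, -0.050 in D4 vs MEF (exact permutation p = 0.5), -0.90 in iPSC vs MEF and -0.85 in iPSC vs D4. With median-ratio scaling it was -0.20 in D4 vs MEF, -1.46 in iPSC vs MEF and -1.27 in iPSC vs D4. The cause of the changes between settings was not tested. Depth limits Thbs4 outside MEF and Tnn in iPSC most.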

Other observations

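Counts for other marker lists are set against the shares of all genes. In D4_DUX vs D4 these were 20.1% higher and 15.4% lower, in D4 vs MEF 34.2% and 27.6%, and in iPSC vs MEF 51% and 31.2%. Few genes were tested per list, and several counts lie near these shares. Epithelial markers had 6 of 9 higher and 0 lower in D4_DUX vs D4, with sums over all 10 of 74.6 to 83.0 FPKM in D4_DUX, against 29.8 to 34.1 FPKM in D4, and 4 of 9 higher in D4 vs MEF. Smooth muscle and myofibroblast markers had 5 of 7 lower in D4_DUX vs D4, with sums of 378 to 383 FPKM in D4_DUX and 453 to 491 FPKM in D4, and 7 of 7 lower in iPSC vs MEF. Tendon markers, of the tissue where Thbs4 is known, had 2 of 4 higher in D4_DUX vs D4 and 1 of 4 lower in D4 vs MEF. Bone markers had 2 of 4 lower in D4_DUX vs D4, and in D4 vs MEF 2 of 4 were higher and 1 of 4 lower. Cartilage markers had 1 of 4 higher and 4 of 4 lower in the same comparisons. Endothelial, platelet, skeletal muscle and neural lists had 2, 4, 2 and 5 genes tested, and in D4_DUX vs D4 they had 1, 1, 0 and 3 higher and 0, 2, 0 and 1 lower.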
